A study of Mus musculus with 22 samples.

Results

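The renal medulla is kept hypertonic so that urine can be concentrated, and its cells balance the salt and urea around them with small organic solutes. The transcription factor NFAT5, also called the tonicity-responsive enhancer binding protein, drives the genes that supply these osmolytes. The set described here is 7 of the 32858 genes counted: Nfat5 itself, the osmolyte transporters Slc5a3, Slc6a6, and Slc6a12, the sorbitol-forming enzyme gene Akr1b3, the urea transporter gene Slc14a2, and the kinase gene Sgk1. SLC5A3 carries myo-inositol, SLC6A6 carries taurine, SLC6A12 carries betaine and GABA, aldose reductase turns glucose into sorbitol, and SLC14A2 makes the urea transporters of the inner medullary collecting duct and the thin descending limb. SGK1 is a kinase induced by hypertonicity and by corticosteroids that holds the epithelial sodium channel at the membrane. The genes were chosen by their symbols for these known roles, and all 7 passed the filter on low counts. Akr1b3 and Sgk1 were also selected on their difference between KW6002 and vehicle in these same kidneys, so values of that comparison are given only as a description. The same vehicle kidneys are the reference in the other comparisons with vehicle. Tests of Akr1b3 and Sgk1 against vehicle are therefore not independent of that choice.

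The RNA came from kidneys of 22 male C57Bl6/J mice aged 8 to 10 weeks, with 1 library from each mouse. Vehicle mice (n = 5) received neither drug, and KW6002 mice (n = 6) received KW6002 alone. Cisplatin mice (n = 5) received cisplatin at 3 mg/kg on each of 6 days, and the mice of the cisplatin plus KW6002 group (n = 6) received both. KW6002 is istradefylline, an adenosine receptor antagonist, and was injected daily at 3 mg/kg from day -5 to day 7 around the first cisplatin dose. Injections were intraperitoneal, and the kidneys were taken 72 hours after the last cisplatin dose. Libraries held 26471762 to 40510754 counts. Levels are CPM, the counts of a gene scaled to the same library size in every library after TMM normalization, a change is a log2 fold change from edgeR with its SE, and a gene was called at a Benjamini-Hochberg adjusted p below 0.05 over all 17131 genes tested. Whether each sample was a whole kidney or a part of one is not given in the sources used here. Because RNA of all cell types was read together, fewer cells of a type and less RNA per cell cannot be told apart.

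A pair of vehicle libraries stood apart in RNA of the medulla. The summed level of 4 thin limb markers was 53.4 CPM in vehicle replicate 1 and 76.4 CPM in vehicle replicate 2, against 153 to 175 CPM in vehicle replicates 3 to 5. The summed level of 8 collecting duct principal cell markers was 408 and 402 CPM in replicates 1 and 2 and 597 to 727 CPM in the other vehicle kidneys. Markers of fat went the other way, at 209 and 363 CPM against 29.1 to 66.3 CPM, while 6 proximal tubule markers summed to 18601 and 18142 CPM against 18691 to 19477 CPM. Members whose call or direction against vehicle changed, or whose fold change moved by more than 1.5 times, are therefore also given without these libraries, as are the list counts after cisplatin that changed. The labels also number the animals in 2 series, the 300s (vehicle replicates 1 to 3 and KW6002 replicates 1 to 3) and the 500s (all other libraries). All cisplatin-treated kidneys, with or without KW6002, belong to the 500s.

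NFAT5 recognises a short element whose core is TGGAAA. RefSeq start windows of build GRCm38.p6 matched 4 of the 7 genes (Nfat5, Sgk1, Slc5a3, and Slc6a12) with 13 windows, and in the 250 bases before the start this core, searched on both strands, stood in 3 of those 13 windows. The same core stood in 18.6% of all 32851 windows. It occurred before 1 start of Slc6a12 and before 2 starts of Sgk1, and not in the windows of Nfat5 or Slc5a3. A second search, for the letters AGAACA, which occur in the element of the glucocorticoid receptor, found 3 of the 13 windows, all of Sgk1, against 16.1% of all windows. These matches describe letters only, and both genes have other starts without the core. The windows of Slc6a12 (chr6:121342324-121342573, plus strand) and Sgk1 (chr10:21993640-21993889, plus strand) are shown with the NFAT5 core in capitals because they hold the tonicity element letters of the transporter and the kinase, and the first base of the core lies 75 bases before the Slc6a12 start and 163 bases before the Sgk1 start.
Slc6a12: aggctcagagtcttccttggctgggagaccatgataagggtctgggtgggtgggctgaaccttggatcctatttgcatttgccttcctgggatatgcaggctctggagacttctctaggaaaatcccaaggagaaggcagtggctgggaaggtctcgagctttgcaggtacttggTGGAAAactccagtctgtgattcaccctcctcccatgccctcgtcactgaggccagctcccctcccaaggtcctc
Sgk1: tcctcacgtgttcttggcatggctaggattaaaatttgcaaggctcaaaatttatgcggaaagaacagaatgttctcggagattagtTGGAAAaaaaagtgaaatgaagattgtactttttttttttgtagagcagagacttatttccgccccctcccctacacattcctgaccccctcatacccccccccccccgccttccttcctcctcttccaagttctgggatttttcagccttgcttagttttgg
The table of windows held no entry for Akr1b3, Slc6a6, and Slc14a2.

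**Figure D1:**
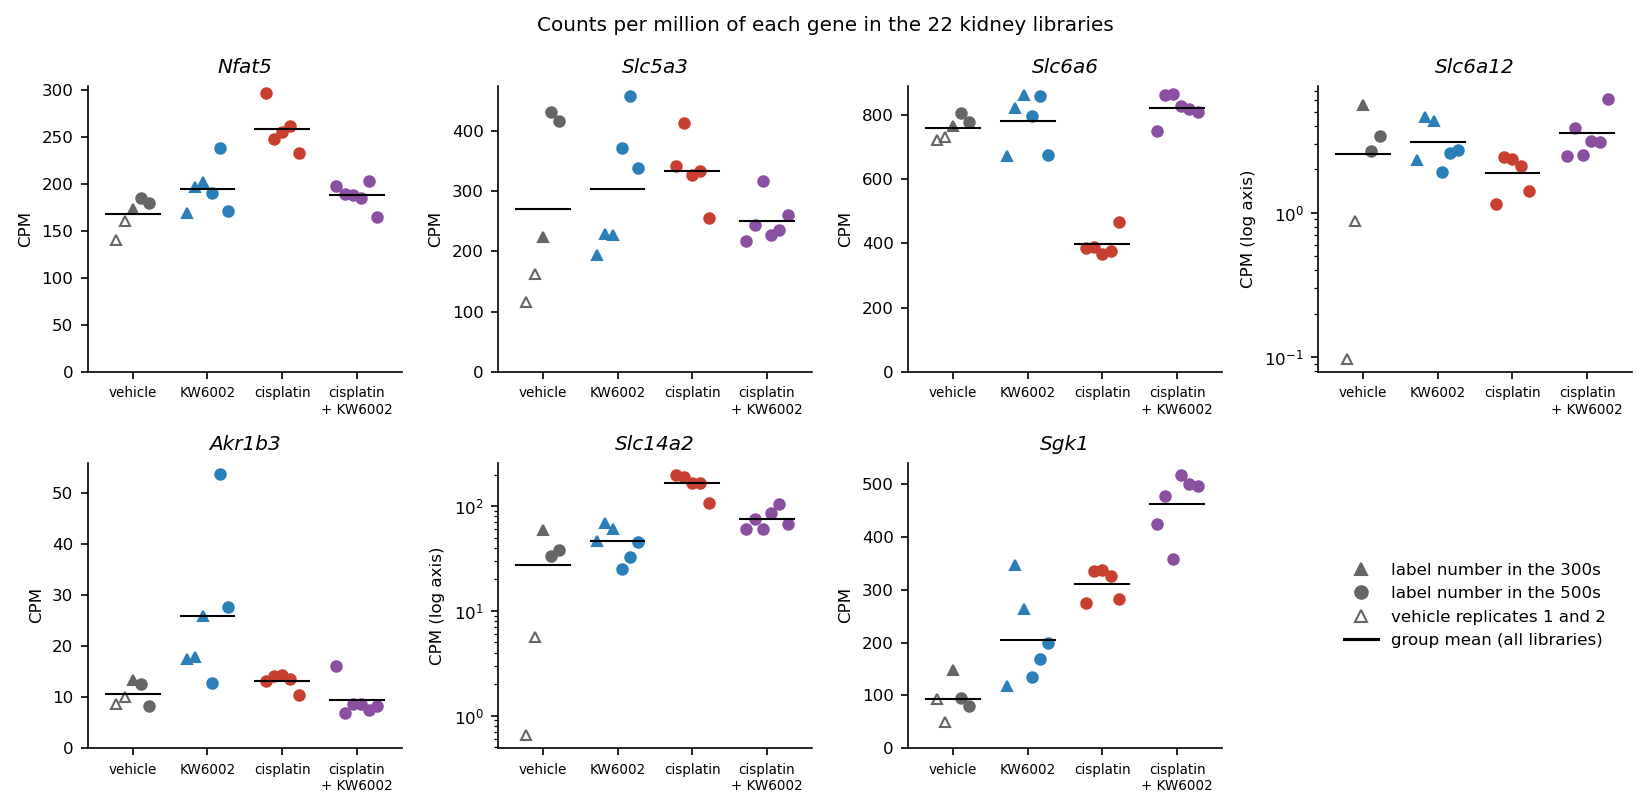
CPM of the 7 genes in each of the 22 kidney libraries by group, with log axes for Slc6a12 and Slc14a2, lines at group means, triangles for label numbers in the 300s and open symbols for vehicle replicates 1 and 2. Slc6a6 of the 5 cisplatin kidneys lies between 366 and 468 CPM, below all 17 other kidneys.

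After cisplatin, the regulator Nfat5, the kinase Sgk1, and the urea transporter Slc14a2 were higher than with vehicle, the taurine transporter Slc6a6 was lower, and the other 3 genes were not called. This made 3 genes higher where 34.6% of all genes tested were called higher, and 1 gene lower where 35.9% of all genes were called lower. The cisplatin and vehicle groups did not overlap for these same 4 genes, and 55.3% of all genes did not overlap. Counts of this size among 7 genes are near the background of the whole table and say nothing particular of the set. The median log2 fold change of the 7 genes was 0.31, and that of all genes was -0.01. Markers of several cell types differed between the same groups. Summed thick ascending limb markers were 2117 to 2445 CPM after cisplatin and 6613 to 10456 CPM with vehicle, fibroblast markers 690 to 884 and 188 to 323 CPM, and urothelial markers 188 to 338.5 and 4.70 to 28.3 CPM. Summed macrophage markers, at 164 to 218 CPM after cisplatin, lay inside the vehicle range of 136 to 237 CPM and above vehicle replicates 3 to 5 at 136 to 146 CPM. Of 5 macrophage markers 1 was called higher and 2 lower, and 3 higher and 1 lower without vehicle replicates 1 and 2. Without those libraries 5798 of all 17571 genes tested were called higher after cisplatin and 5976 lower. The adrenal marker Star, the only one of its list that passed the filter, stayed between 1.20 and 2.64 CPM in all kidneys but 1. That kidney, cisplatin plus KW6002 replicate 6, had 25.0 CPM. Cyp11b1, of the same list, did not pass the filter but had a highest count of 542.

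Nfat5 (ENSMUSG00000003847, chr8:107293470-107379517 of mm10, plus strand) had 141, 160, 173, 185, and 180 CPM in the vehicle kidneys of replicates 1 to 5. The cisplatin kidneys had 297, 248, 255, 262, and 233 CPM, so every cisplatin kidney was above every vehicle kidney. The log2 fold change was 0.63 (SE 0.09, edgeR adjusted p = 1.36e-06), or 1.54-fold. The transcript of the tonicity regulator was thus raised 72 hours after the last dose, although much of the control of NFAT5 is known to act on the protein, which was not measured.

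Sgk1 (ENSMUSG00000019970, chr10:21882184-21999903, plus strand) had 92.7, 49.6, 148, 94.5, and 79.2 CPM with vehicle. It had 276, 336, 337.4, 327, and 282 CPM with cisplatin, with no overlap. On the log2 scale the difference was 1.75 (SE 0.25, edgeR adjusted p = 1.72e-06), or 3.36-fold. These vehicle kidneys also entered the choice of Sgk1, so this p is not independent of that choice. Among the 7 genes Sgk1 took the first place in level after cisplatin: divided by the length of its annotated exons, its mean was 63.6 CPM per kb, ahead of Slc6a6 at 47.0 CPM per kb, whereas with vehicle Slc6a6 led at 89.9 CPM per kb and Sgk1 stood at 18.9 CPM per kb.

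Slc6a6 (ENSMUSG00000030096, chr6:91684053-91759066, plus strand) had 721, 732, 765, 805, and 777 CPM in vehicle kidneys. It had 386, 390, 366, 377, and 468 CPM after cisplatin. All cisplatin values lay below all vehicle values, and the log2 fold change was -0.94 (SE 0.08, edgeR adjusted p = 2.41e-10), or 0.523-fold. Vehicle replicates 1 and 2 were the lowest of their group for this taurine transporter too, but far above every cisplatin kidney. Markers of the proximal tubule fell with it: all 6 were called lower, and their summed level was 3019 to 4929 CPM after cisplatin. Their part in the Slc6a6 result was not tested.

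Slc14a2 (ENSMUSG00000024552, chr18:78146148-78596942, minus strand) had 0.648, 5.69, 58.8, 33.2, and 37.9 CPM in the vehicle kidneys. The lowest values are those of vehicle replicates 1 and 2, where 20 and 142 reads were counted. After cisplatin it had 197, 192, 168, 165, and 108 CPM, above every vehicle kidney. The log2 fold change was 2.60 (SE 0.54, edgeR adjusted p = 1.78e-04), and without vehicle replicates 1 and 2 it was 1.94 (SE 0.29, adjusted p = 4.64e-06). The rise was therefore smaller and more precise against the vehicle kidneys with the higher thin limb markers. Thin limb markers were higher alongside it, with 2 of 4 called higher, 0 lower (edgeR, also 0 at an unadjusted p below 0.05 and by DESeq2), and summed levels of 234 to 319 CPM after cisplatin. Of 8 principal cell markers 3 were called higher and 1 lower, with sums of 702 to 1010 CPM. Without vehicle replicates 1 and 2 the counts were 2 higher and 2 lower for the principal cell markers and 3 higher and 0 lower for the thin limb markers. The part of either marker list in the Slc14a2 result was not tested.

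**Figure D2:**
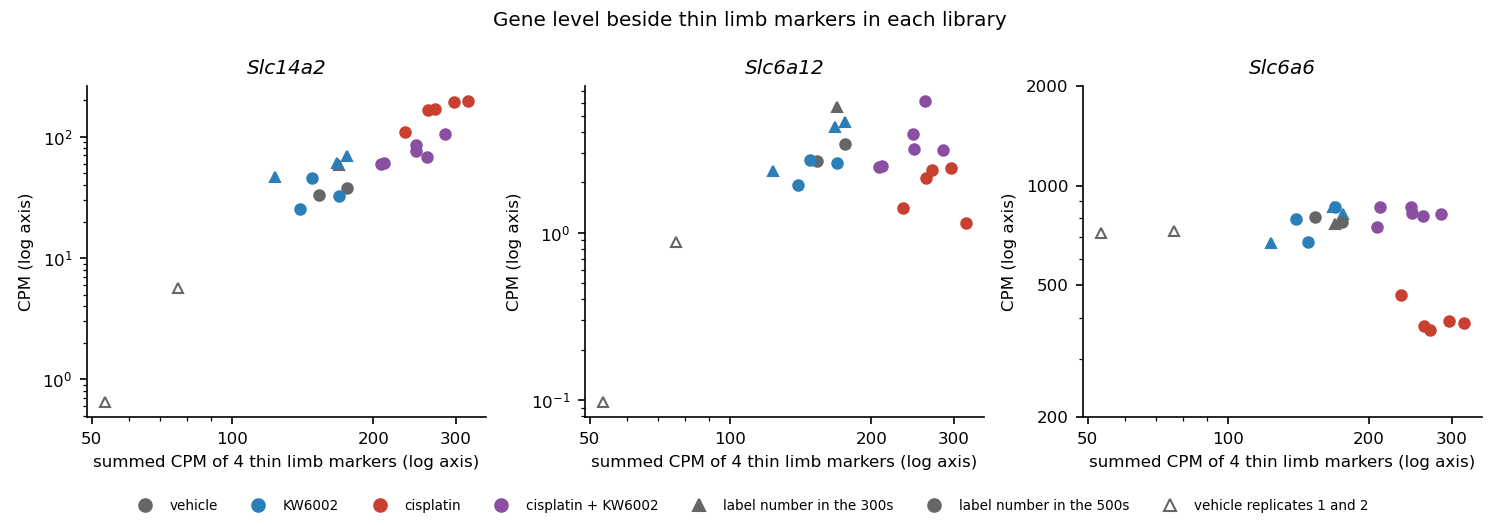
CPM of Slc14a2, Slc6a12, and Slc6a6 against the summed CPM of 4 thin limb markers in each library, all on log axes, with colours for groups, triangles for label numbers in the 300s and open symbols for vehicle replicates 1 and 2. Both open symbols lie at the low end of Slc14a2 (0.648 and 5.69 CPM) and Slc6a12 (0.0972 and 0.882 CPM) but for Slc6a6, at 721 and 732 CPM, lie near the other vehicle kidneys.

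The betaine transporter Slc6a12 (ENSMUSG00000030109, chr6:121343076-121365775, plus strand) had the lowest mean level per length of the 7 genes in vehicle kidneys, though not clear of Akr1b3. Its values there were 0.0972, 0.882, 5.61, 2.68, and 3.38 CPM. Here too vehicle replicates 1 and 2 were lowest, with 3 and 22 reads. Cisplatin kidneys had 1.15, 2.44, 2.37, 2.11, and 1.42 CPM, inside the range of all 5 vehicle kidneys but below vehicle replicates 3 to 5. The change on the log2 scale was -0.42 (SE 0.49, edgeR adjusted p = 0.459). Without vehicle replicates 1 and 2 it was -1.04 (SE 0.33, adjusted p = 0.00922), so whether this gene was called lower after cisplatin depended on those libraries.

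The myo-inositol transporter Slc5a3 (ENSMUSG00000089774, chr16:92058322-92087473, plus strand) followed the label number series in the kidneys that had no cisplatin. Vehicle kidneys numbered in the 300s had 115, 162, and 223 CPM and those in the 500s had 432 and 417 CPM. KW6002 kidneys split in the same way, with 194 to 229 CPM in the 300s and 338 to 457 CPM in the 500s, so within neither group did the series overlap. Cisplatin kidneys, all numbered in the 500s, had 342, 413, 327, 334, and 255 CPM. Over all libraries the log2 fold change was 0.31 (SE 0.28, edgeR adjusted p = 0.332). Among the 500s alone it was -0.35 (adjusted p = 0.0555), and with the series as a covariate it was -0.18 (adjusted p = 0.345), so no direction can be given for this gene. The 159 exon bases that Slc5a3 shares with Mrps6 and Gm49711 on the same strand are 1.46% of its exon bases.

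For Akr1b3 (ENSMUSG00000001642, chr6:34302434-34317478, minus strand) the counts cover the messenger RNA poorly. Of the 1338 stretches of 50 bases, the length of a read, in its longest coding transcript, 1153 (86.2%) also stand in an annotated transcript of another gene, mostly in Gm38056, which itself had 0 to 16 reads per library. Since only reads with a single place in the genome were counted, little of the messenger could give a counted read. The 219 to 1525 Akr1b3 reads per library lay in its remainder or in other annotated parts of the gene. In the other 6 genes at most 1.01% of the longest coding transcript was shared in this way. With this limit, Akr1b3 had 8.68, 9.99, 13.4, 12.7, and 8.27 CPM with vehicle and 13.2, 14.2, 14.3, 13.6, and 10.5 CPM with cisplatin, and these groups overlapped. The log2 fold change was 0.31 (SE 0.29, 95% interval -0.29 to 0.91, edgeR adjusted p = 0.344).

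**Figure D3:**
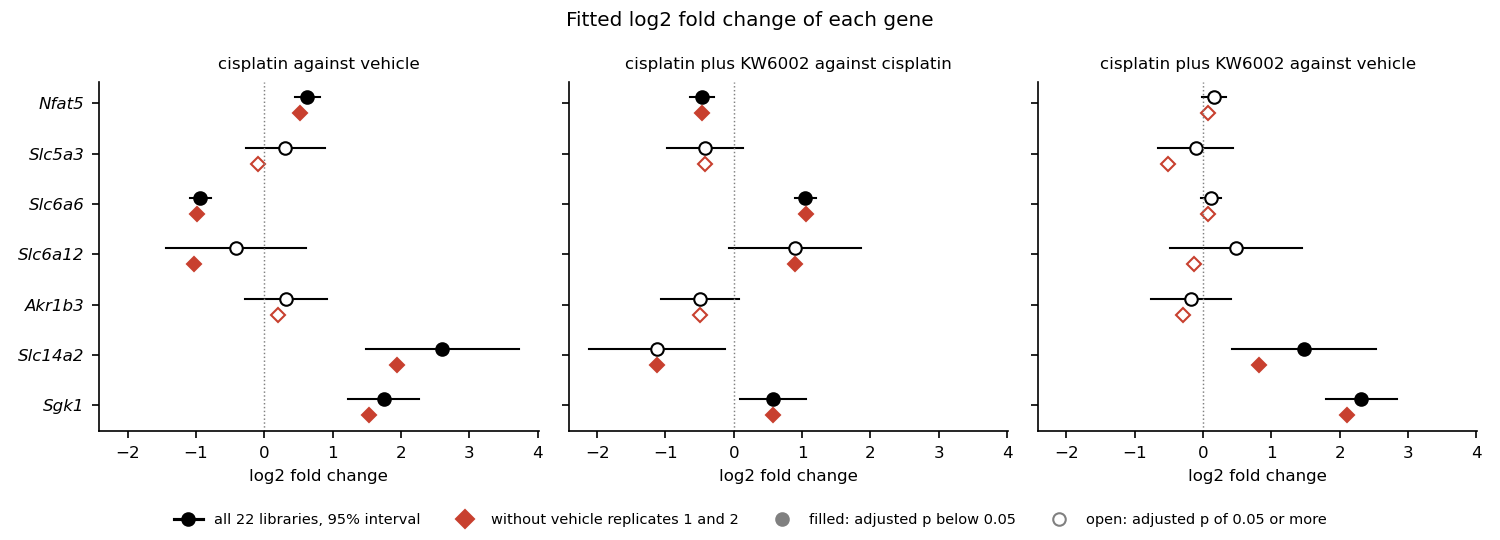
Log2 fold change of the 7 genes in the 3 tested comparisons, with black circles and 95% intervals for the fit of all 22 libraries and red diamonds for the fit without vehicle replicates 1 and 2. Filled symbols mark an adjusted p below 0.05, and the Slc6a12 diamond after cisplatin (-1.04) is filled while its circle (-0.42) is open.

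When KW6002 accompanied cisplatin, Nfat5 was lower than after cisplatin alone, Slc6a6 was higher, and Sgk1, already raised by cisplatin, was higher still. That is 2 genes called higher, where 28.6% of all genes were, and 1 called lower, where 27.2% of all genes were. Slc6a12 (higher) and Slc14a2 (lower) also had groups that did not overlap without being called, so that 5 of the 7 genes did not overlap, against 37.8% of all genes. The median log2 fold change was -0.42 over the 7 genes and 0.01 over all genes. The 5 cisplatin kidneys enter both this comparison and the one with vehicle.

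Nfat5 had 198, 189, 189, 185, 203, and 164 CPM in the 6 kidneys given both drugs, all below the lowest cisplatin kidney at 233 CPM. This gave a log2 fold change of -0.46 (SE 0.08, edgeR adjusted p = 7.34e-05). Slc6a6 had 751, 863, 865, 828, 819, and 809 CPM, all above the highest cisplatin kidney at 468 CPM. Its log2 fold change was 1.05 (SE 0.07, adjusted p = 1.33e-10), or 2.07-fold. The proximal tubule markers, of which 5 of 6 were called higher, summed to 7495 to 11115 CPM, which remained below the lowest vehicle sum of 18142 CPM while Slc6a6 itself lay within or above the vehicle range.

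Sgk1 had 425, 478, 358, 517, 500, and 496 CPM with both drugs, above the highest cisplatin kidney at 337.4 CPM. The log2 fold change was 0.57 (SE 0.23, edgeR adjusted p = 0.0430), and the groups did not overlap. This call was narrow. It was missed with DESeq2 (adjusted p = 0.0673), with scaling by library size only (0.0677), and in 9 of the 11 fits that left out 1 library. Among the 500s alone its adjusted p was 1.72e-04.

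Slc14a2 had 60.1, 76.1, 60.3, 85.8, 106, and 67.7 CPM with both drugs, all below the lowest cisplatin kidney at 108 CPM. Its fitted log2 fold change was -1.13 (SE 0.48, edgeR adjusted p = 0.0512) and missed the threshold. Without vehicle replicates 1 and 2, which enter only through the shared estimate of spread, it was -1.12 (SE 0.22, adjusted p = 1.76e-04). The summed thin limb markers overlapped between these groups, at 208 to 284 CPM against 234 to 319 CPM, with 1 of the 4 markers called higher and 2 called lower. Urothelial markers also moved with Slc14a2: their sum was 188 to 338.5 CPM after cisplatin and 42.7 to 93.5 CPM with both drugs, and their part in the result was not tested.

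Slc6a12 had 2.46, 3.89, 2.50, 3.16, 3.10, and 6.13 CPM with both drugs, each above the highest cisplatin value of 2.44 CPM. The kidney at 6.13 CPM, replicate 6, is the one with the adrenal marker Star at 25.0 CPM, and the part of adrenal RNA was not tested. The log2 fold change was 0.90 (SE 0.47, edgeR adjusted p = 0.106), and without vehicle replicates 1 and 2 the adjusted p was 0.00996 at the same fold change (0.90, SE 0.28). Its lowest value with both drugs and its highest after cisplatin lie close together, so the separation is slight. Slc5a3 had 217, 244, 316, 227, 235, and 260 CPM, which overlaps the cisplatin range, with a log2 fold change of -0.42 (SE 0.27, adjusted p = 0.188, and 0.00441 among the 500s alone). Akr1b3 had 16.2, 6.87, 8.75, 8.64, 7.46, and 8.28 CPM. The first of these kidneys lies above all cisplatin kidneys and the other 5 below them. On the log2 scale the difference was -0.49 (SE 0.28, edgeR adjusted p = 0.136), and without that first kidney it was -0.72 (adjusted p = 0.0268).

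Set against vehicle, the kidneys given both drugs differed in the level of Sgk1 and Slc14a2. These 2 genes were called higher, where 29.8% of all genes were, and 0 of 7 were called lower, where 29.9% of all genes were. The 0 stood also at an unadjusted p below 0.05 with edgeR and by DESeq2. The same 2 genes did not overlap, against 37.5% of all genes, and the median log2 fold change was 0.17 (all genes -0.00). Sgk1 had its largest difference here, with a log2 fold change of 2.32 (SE 0.25, edgeR adjusted p = 5.30e-08) and 4.98-fold. Slc14a2 rose by 1.48 on the log2 scale (SE 0.51, adjusted p = 0.0162), and by 0.81 (SE 0.27, adjusted p = 0.0149) without vehicle replicates 1 and 2. Fitted on these 2 groups alone, the Slc14a2 change was 1.47 with an adjusted p of 0.0581, so its call was lost there.

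For Nfat5 and Slc6a6 the kidneys given both drugs lay near those given vehicle. The log2 fold change of Nfat5 was 0.17 (SE 0.08, 95% interval -0.01 to 0.34, edgeR adjusted p = 0.0960), and that of Slc6a6 was 0.11 (SE 0.07, 95% interval -0.04 to 0.26, adjusted p = 0.185). These intervals bound the difference but do not show equal levels, and with scaling by library size only, which moved the median of all genes by 0.16, Slc6a6 reached 0.27 (adjusted p = 0.00188) and Nfat5 0.33 (adjusted p = 0.00261). Slc5a3 differed by -0.11 over all libraries (SE 0.27, adjusted p = 0.740) and by -0.76 among the 500s alone (adjusted p = 3.56e-04). The myo-inositol transporter was thus lower than vehicle with both drugs when only kidneys of one number series were set side by side, a comparison with 2 vehicle kidneys. Slc6a12 differed by 0.48 (SE 0.46, adjusted p = 0.383) and Akr1b3 by -0.18 (SE 0.28, adjusted p = 0.603).

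KW6002 alone is described without a test for these genes, because it helped to choose them. Akr1b3 had 17.5, 17.9, 26.0, 12.8, 53.6, and 27.6 CPM with KW6002, against 8.27 to 13.4 CPM with vehicle. Only the fourth KW6002 kidney reached into the vehicle range, and within each number series the groups did not overlap, though among the 500s only narrowly (12.8 against 12.7 CPM). The fitted log2 fold change was 1.29 (SE 0.28), and 1.18 without vehicle replicates 1 and 2. Sgk1 had 118, 346.5, 264, 136, 169, and 200 CPM, of which 2 kidneys lay below the highest vehicle kidney at 148 CPM, with a log2 fold change of 1.15 (SE 0.24).

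The 5 remaining genes differed less between these groups. Fitted log2 fold changes were 0.22 for Nfat5, 0.17 for Slc5a3, 0.28 for Slc6a12, 0.04 for Slc6a6, and 0.78 for Slc14a2, and without vehicle replicates 1 and 2 they were 0.11 for Slc14a2 and turned to -0.33 for Slc6a12, -0.24 for Slc5a3, and -0.0015 for Slc6a6. For all 7 genes the fold change over all 22 libraries was above 0 (median 0.28, all genes -0.00) and the groups overlapped, where 1.38% of all genes had groups that did not overlap. Across the whole table this comparison called 0.0175% of genes higher (3 genes) and 0% lower with edgeR. At an unadjusted p below 0.05 there were 938 higher and 992 lower, and DESeq2 called 46 and 53.

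Levels per length give the order of the genes within each group. With vehicle the means were 89.9 CPM per kb for Slc6a6, 24.7 for Slc5a3, 18.9 for Sgk1, 9.12 for Nfat5, 5.27 for Slc14a2, 1.26 for Akr1b3, and 0.829 for Slc6a12. The ranges of neighbours overlapped between Slc5a3 and Sgk1, between Nfat5 and Slc14a2, and down the rest of the order. The level of Akr1b3 per length is not comparable with those of the other genes, so its place is uncertain in every group. Its counts were divided by 8384 exon bases, while 86.2% of the stretches of its longest coding transcript are shared with other genes. After cisplatin Slc14a2 moved up to the third place at 32.1 CPM per kb, not clear of Slc5a3 at 30.6 CPM per kb. With both drugs Slc6a6 at 97.2 and Sgk1 at 94.3 CPM per kb could not be ordered.

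Of 15 genes that make or break down osmolytes 5 were called higher and 8 lower after cisplatin (median log2 fold change -0.11), and 5 and 7 without vehicle replicates 1 and 2. Calls were common over the whole table with every library in the fit, at 34.6% higher and 35.9% lower after cisplatin. With both drugs the shares of all genes were 28.6% higher and 27.2% lower against cisplatin, and 29.8% and 29.9% against vehicle. Without vehicle replicates 1 and 2, 5798 of all 17571 genes were called higher and 5976 lower after cisplatin. With both drugs against vehicle that fit called 4685 higher and 4624 lower. The counts of this list and of those that follow are to be read against these backgrounds. Those that fell furthest were Miox, the enzyme that breaks down myo-inositol, at -5.27 (SE 0.25, edgeR adjusted p = 2.27e-14), Csad, which acts in taurine synthesis, at -2.68, Sord, which oxidises sorbitol to fructose, at -1.73, and Chdh, which makes betaine aldehyde from choline, at -1.26. Miox ran from 1710 to 2450 CPM with vehicle, from 26.1 to 84.2 CPM with cisplatin, and from 478 to 910 CPM with both drugs. Those 3 ranges do not overlap. With both drugs against cisplatin 7 of the 15 were called higher and 5 lower (median 0.02), and Miox rose by 3.75, Sord by 1.29, Csad by 1.08, and Chdh by 0.61 on the log2 scale. Miox and Chdh are proximal tubule enzymes, and the part of the proximal tubule markers in these changes was not tested.

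Of 10 other osmolyte and urea transporters and volume-regulated channel genes, 5 were called higher and 4 lower after cisplatin (median -0.02), and 4 and 4 without vehicle replicates 1 and 2. Lrrc8a and Lrrc8e, which encode subunits of the volume-regulated anion channel through which cells release osmolytes, rose by 0.83 and 1.73 on the log2 scale. With both drugs they fell by 0.49 and 0.75 against cisplatin. Slc38a2, an amino acid transporter that responds to hypertonicity, rose by 0.80 after cisplatin. Slc6a13, a GABA and betaine transporter of the proximal tubule, fell by 0.80 after cisplatin and with both drugs was 1.26 higher than after cisplatin. In that comparison 3 of the 10 were called higher and 3 lower (median 0.09).

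The other urea transporter gene of the kidney, Slc14a1, which serves the descending vasa recta, had 0.680, 2.41, 7.49, 6.80, and 5.56 CPM with vehicle and 2.93, 3.54, 2.40, 2.17, and 2.75 CPM with cisplatin. It was chosen for naming after its values were seen, as the partner of Slc14a2. It too was lowest in vehicle replicates 1 and 2. Its log2 fold change after cisplatin was -0.74 (SE 0.36, edgeR adjusted p = 0.0737), opposite in sign to that of Slc14a2, and with both drugs against cisplatin it was 1.04 (SE 0.34, adjusted p = 0.0139).

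Among 12 genes that signal hypertonicity to NFAT5 or act with it, 5 were called higher and 5 lower after cisplatin (median 0.11). The furthest were Wnk1, a chloride-sensing kinase, at -1.09, Parp1, which modifies proteins with ADP-ribose, at -0.67, Atm, a DNA damage kinase, at -0.61, and Ccm2, a scaffold of p38 signalling, at 0.56. With both drugs against cisplatin 2 of the 12 were called higher and 2 lower (median 0.04). Atm was 0.64 higher in that comparison, whereas Wnk1 (0.11), Parp1 (0.05), and Ccm2 (-0.07) were not called.

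Of 9 other genes known to be induced by hypertonicity 5 were called higher and 1 lower after cisplatin (median 0.92), and 6 and 1 without vehicle replicates 1 and 2. Ptgs2, the inducible cyclooxygenase, was higher by 3.42, Ccl2, a monocyte chemokine, by 2.50, Cryab, a small heat shock protein gene of the medulla, by 2.17, and Aqp2, the water channel of the collecting duct, by 1.41 on the log2 scale. Aqp2 is also 1 of the 8 principal cell markers. Against cisplatin, the kidneys given both drugs had 1 of the 9 called higher and 3 lower (median -0.26), with -1.19 for Cryab, -0.98 for Ccl2, -0.58 for Ptgs2 (not called, adjusted p = 0.0609), and 0.08 for Aqp2 (not called). Of the 3 osmolyte transporters of the main set 1 was called after cisplatin, and that was Slc6a6, lower.

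Of 8 relatives, regulators, and targets of SGK1, 1 was called higher and 5 lower after cisplatin (median -0.40), and 0 and 5 without vehicle replicates 1 and 2. Hsd11b2, which inactivates corticosteroids in the distal nephron, was at -0.91, Nr3c2, the mineralocorticoid receptor, at -0.67, and the related kinases Sgk2 and Sgk3 at -0.50 and -0.47. With both drugs against cisplatin 5 of the 8 were called higher and 0 lower (edgeR, with 0 lower also at an unadjusted p below 0.05 and by DESeq2), with 0.46 for Hsd11b2 and 0.31 for Nr3c2.

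Of 8 genes induced by corticosteroids, 7 were called higher after cisplatin and 0 lower (median 1.74), with 0 lower also at an unadjusted p below 0.05 and by DESeq2. Without vehicle replicates 1 and 2 there were 6 higher (median 1.56). Mt2, a metallothionein gene, was at 4.56, Pdk4, a kinase that restrains pyruvate oxidation, at 3.36, Fkbp5, a chaperone of the glucocorticoid receptor, at 2.13, and Per1, which is also a clock gene, at 1.80. With both drugs against cisplatin 0 of these 8 genes were called higher (edgeR, with 1 at an unadjusted p below 0.05, and 0 by DESeq2) and 5 lower (median -0.59). The part of corticosteroids in the Sgk1 results was not tested. Against vehicle, kidneys given both drugs had 8 of the 8 higher (median 1.25), and 7 without vehicle replicates 1 and 2 (median 1.00). With KW6002 alone 0 of the 8 were called in either direction with edgeR (3 higher and 0 lower at an unadjusted p below 0.05, and 2 higher by DESeq2). The hour at which kidneys were taken is not given in the sources used here, and of 16 core clock genes 8 were called higher and 5 lower after cisplatin (median 0.15). Nfil3, a repressor that feeds the clock, was at 2.47 among them. With KW6002 alone 1 of the 16 clock genes was called higher and 0 lower with edgeR (all genes 0.0175% and 0%). At an unadjusted p below 0.05 there were 5 higher and 1 lower, and DESeq2 called 3 and 0. Without vehicle replicates 1 and 2 edgeR called 0 in either direction.

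The aldo-keto reductase genes closest to Akr1b3 moved apart after cisplatin. Akr1b8 was called higher, from 2.02 to 4.41 CPM with vehicle to 38.7 to 45.8 CPM after cisplatin, which was 3.82 on the log2 scale (SE 0.17, edgeR adjusted p = 7.66e-15). Akr1b7 (-1.59), Akr1a1 (-1.29), and Akr1b10 (-0.55) were called lower, so that 1 of 4 was higher and 3 were lower (median -0.92). With both drugs against cisplatin Akr1b8 was at -1.11, Akr1a1 at 1.13, Akr1b7 at 1.32, and Akr1b10 at 0.09 (not called). Over all 8 lists 36 of 81 pathway genes were called higher and 31 lower after cisplatin (all genes 34.6% and 35.9%). With both drugs the counts were 21 and 20 against cisplatin (all genes 28.6% and 27.2%). Against vehicle they were 40 and 23 (all genes 29.8% and 29.9%). The vehicle-based list counts without vehicle replicates 1 and 2 were 34 and 30 after cisplatin and 34 and 20 with both drugs. That fit called 5798 higher and 5976 lower of all 17571 genes after cisplatin, and 4685 and 4624 with both drugs.

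**Figure D4:**
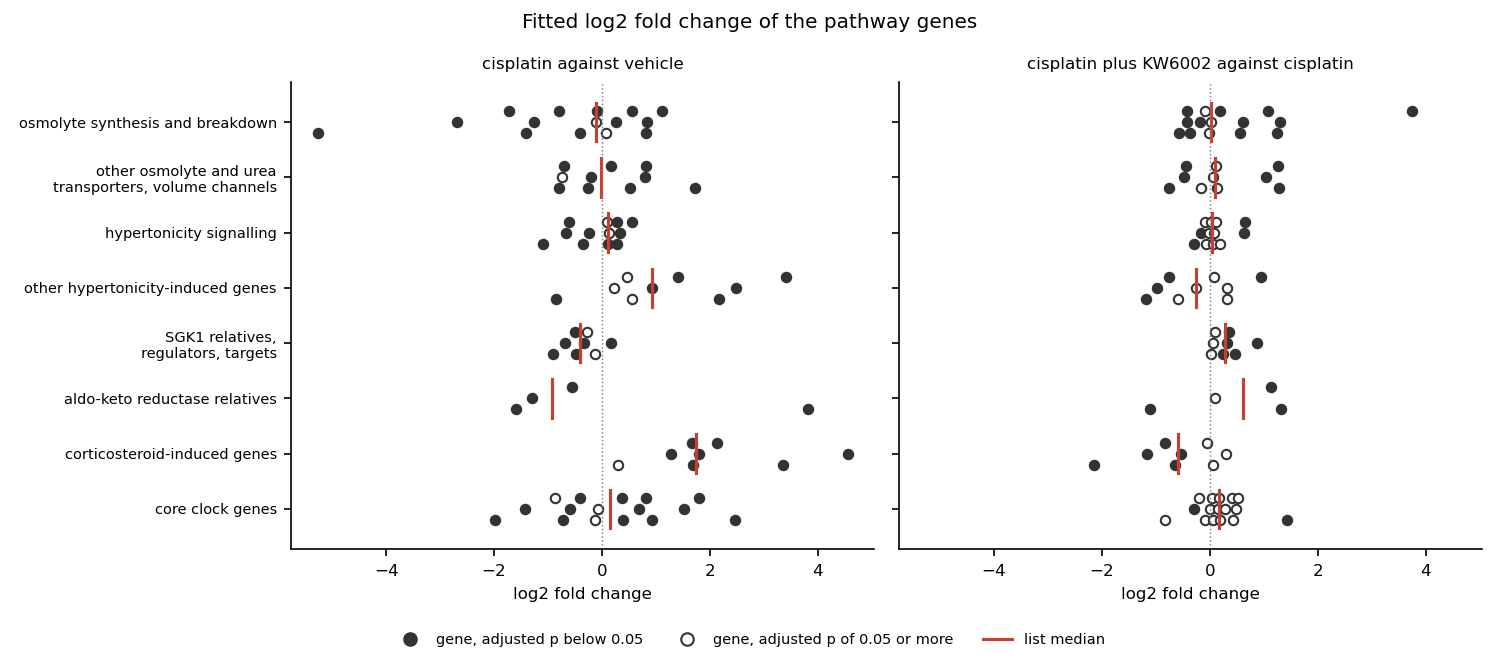
Log2 fold change of each gene of the 8 pathway lists after cisplatin (left) and with both drugs against cisplatin (right), filled where the adjusted p was below 0.05, with red lines at list medians. Corticosteroid-induced genes have their median at 1.74 on the left and -0.59 on the right, and Miox is the point at -5.27 on the left and 3.75 on the right.

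The genes whose log2 CPM followed each member most closely over the 22 libraries, among 10422 genes of adequate level, differed from member to member. For Nfat5 they were Xiap (Pearson r = 0.933), Zdhhc21 (0.930), and Nufip2 (0.926), and for Slc6a6 they were Cplx2 (0.976), Med16 (0.974), and Polr2b (0.974). For Sgk1 they were Nckipsd (0.933), Tsku (0.925), and Pafah1b3 (0.914), and for Slc14a2 they were Scel (0.958), Wnt7b (0.947), and Muc20 (0.923). Slc6a12 was followed by Dnm3 (0.899), Slc6a17 (0.846), and Ephb2 (0.840), Slc5a3 by Fam20b (0.911), Arrdc3 (0.883), and Nfe2l1 (0.854), and Akr1b3 by Zfp46 (0.815), Rhbdd2 (0.778), and Hnrnpr (0.764). These values describe libraries that share the 4 groups and the low thin limb and principal cell marker levels of vehicle replicates 1 and 2, and no 2 members shared a gene in these short lists.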

How the data were processed

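Kidney RNA of 22 mice was profiled by RNA-Seq, 1 library per mouse. The authors prepared stranded poly(A) libraries, sequenced single reads of 50 bases, aligned them to mm10 with STAR, kept reads with a single alignment, and counted them per gene with HTSeq (0.6.1p1 per the labels); whether strand was used in counting is not given in the sources used here. The deposited values are counts, whole numbers of reads per gene and library that had not been normalized, so longer and more deeply read genes are measured more precisely. A further 66 columns of the table were empty, belonged to no sample, and were left out. Groups came from the sample labels.

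Genes were filtered with filterByExpr (CPM of 0.306 in enough libraries), which kept 17131 genes with 99.9% of the counts. Counts were fitted in edgeR 4.0.16 (R 4.3.3) with TMM factors, 1 mean per group over all 22 libraries, no covariate, and quasi-likelihood tests, 2-sided, adjusted by the Benjamini-Hochberg method over all genes. A simulation of cisplatin against vehicle on 16488 genes recovered 94 of the raised and 89 of the lowered genes among 200 changed 2-fold, with 10 other calls. It changed few genes, evenly in both directions, so it cannot show the error rate under a change as broad as that after cisplatin. Levels per kb used the merged exons of GENCODE M21. No libraries of a group agreed within sampling noise (lowest chi-square per gene 3.28). Alternatives were DESeq2 1.42.0, other scalings and filters, the compared groups alone, a replicate block, the label number series, and leaving out libraries.

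The members and the pathway and marker lists were chosen with earlier results of these data known. Genes named besides the members are up to 4 genes of each pathway list with the largest change among those called after cisplatin with an average log2 CPM no lower than 0, as well as the 3 genes most like each member by Pearson r. Slc14a1, Star, Cyp11b1, and the genes that overlap a member or share its sequence were named outside this rule, after their values were seen.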

Additional observations from a re-analysis of the deposited data

Results flagged for a closer look

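In 28 groups of a gene checked for a library far from the others by Dixon's 95% limit, 4 libraries were found, and chance alone gives about 1 in 20. For Akr1b3 these were KW6002 replicate 5 at 53.6 CPM (the other KW6002 kidneys 12.8 to 27.6 CPM), cisplatin plus KW6002 replicate 1 at 16.2 CPM (the others 6.87 to 8.75 CPM), and cisplatin replicate 5 at 10.5 CPM (the others 13.2 to 14.3 CPM). For Slc6a6 it was cisplatin replicate 5 at 468 CPM, where the others had 366 to 390 CPM. That same cisplatin kidney had the lowest Slc14a2 level of its group, 108 CPM, and the lowest Slc5a3 and Nfat5 levels, 255 and 233 CPM.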

How the results depend on the processing

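Of the member fold changes, those of Nfat5, Slc6a6, and Sgk1 after cisplatin, of Slc14a2 after cisplatin, and of Nfat5 and Slc6a6 with both drugs against cisplatin kept their direction and their call in every fit run. Slc5a3 changed sign after cisplatin with the series as a covariate (-0.18), among the 500s alone (-0.35), and without vehicle replicates 1 and 2 (-0.10). With both drugs against vehicle it changed sign with library size scaling (0.051) and without vehicle replicate 4 or 5 (range -0.30 to 0.13). Slc6a12 changed sign without vehicle replicate 3 after cisplatin (range -0.74 to 0.10) and without vehicle replicates 1 and 2 with both drugs against vehicle (-0.13), a choice made after the data were seen. Members called lower after cisplatin numbered 2 without vehicle replicates 1 and 2 and 0 at the stricter threshold (adjusted p below 0.01, log2 fold change beyond 1). With both drugs against cisplatin, members called higher numbered 1 with DESeq2, library size scaling, the replicate block, and the stricter threshold, 3 (with Slc6a12) among the 500s alone, with the 2 groups alone, and without vehicle replicates 1 and 2, and 1 to 2 when 1 library was left out. Members called lower there numbered 2 with relative log expression factors, library size scaling, 10 counts in every library, or without vehicle replicates 1 and 2, 3 with the series as a covariate or the 500s alone, 4 with the 2 groups alone, 0 at the stricter threshold, and 1 to 2 when 1 library was left out. Against vehicle with both drugs, members called higher numbered 4 with library size scaling and 1 with the 2 groups alone (Slc14a2 lost) or the stricter threshold, members called lower numbered 1 with the series as a covariate or the 500s alone, and pathway genes called lower numbered 14 with library size scaling. That scaling moved the median of all genes by 0.20 after cisplatin and 0.16 with both drugs against vehicle. Its split of all genes after cisplatin was 8157 higher and 4244 lower against 5930 and 6155. With both drugs against vehicle its split was 7394 and 3525 of 17131 genes, against 5108 and 5114. With both drugs against cisplatin it was 4091 and 5435. In that last comparison the 500s alone gave 5130 and 5081 of 17761 genes, and the 2 groups alone 4831 and 4853 of 16416. The series as a covariate gave 5098 and 4903 of 17131 there, and leaving out vehicle replicates 1 and 2 gave 5023 and 4874 of 17571. With KW6002 against vehicle the genes called over the table numbered 3 higher and 0 lower with edgeR and 46 and 53 with DESeq2. The replicate numbers were not taken to pair the mice, since 7 of 31 pairs with the same number had deviations correlated above 0.1 (median r 0.0085) and 8 of 22 libraries correlated best with their own number. With the replicate block the adjusted p was 0.0534 for Sgk1 with both drugs against cisplatin and 0.0425 for Nfat5 with both drugs against vehicle, and no other call of a member changed. Without division by length 5 members kept their place in level with vehicle and with KW6002, 3 with both drugs, and 2 with cisplatin. The causes were not tested. Slc6a12 rested on few reads, with 3 and 22 in vehicle replicates 1 and 2, whose libraries held 32634633 and 26471762 counts. Shared sequence limited Akr1b3.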
